A study of Mus musculus with 16 samples.

Results

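The 1000 bins of the mouse genome in which RNA polymerase II (Pol2) rose most when activated B cells were also given 10058-F4 are described here. Chromosomes 1 to 19 were divided into 4924849 bins of 500 bp. A bin was kept when it held at least 20 reads summed over the Pol2 libraries with and without 10058-F4, which left 45878 bins. Kept bins were ranked by log2 of the Pol2 level with 10058-F4 over the level without it. Levels were in RPM, the number of reads scaled to the library's reads on those chromosomes, and 0.1 RPM was added to each side. The 1000 highest were taken as members, and the remaining 44878 are called the other kept bins. The members were therefore chosen on the measured Pol2 values, and those values are given as a description with no test.

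The study used chromatin immunoprecipitation followed by sequencing (ChIP-seq) on cultured mouse splenic lymphocytes, and its title puts the question in terms of Myc as a general amplifier of expression. Quiescent B cells were untreated (B0), given 25 µg/ml of lipopolysaccharide (LPS) for 4 h (B4), or given LPS together with 10058-F4. T cells were activated with the lectin concanavalin A at 7.5 µg/ml, for 4 h (T4) or 14 h (T14). Myc was precipitated through an EGFP tag, Pol2 with an antibody to the polymerase, and each state had control libraries made with non-specific IgG. B4 had 2 Myc, 3 IgG and 1 Pol2 libraries, and B4 with 10058-F4 had 1 Myc, 2 IgG and 1 Pol2 libraries. B0, T4 and T14 had 1 Myc and 1 IgG library each. The labels give neither the dose of 10058-F4 nor a strain, age or sex, and do not say whether libraries came from separate animals. The p-values below therefore measure only the spread between these libraries. The Pol2 library without 10058-F4 and B4 IgG replicate 2 carry the mark "wt" in their titles, which is not explained. If it stands for wild type, the 2 Pol2 libraries may also differ in genotype. The titles and the deposited file names of the 2 T14 libraries give opposite antibodies, so they are called the libraries labelled T14 Myc and T14 IgG.

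Pol2 transcribes protein-coding genes. It is loaded at promoters, can pause shortly downstream, and then moves through the gene body, so ChIP-seq reads for it form narrow peaks at promoters and lower, broader signal over transcribed genes. Myc pairs with Max to bind DNA, mostly near promoters that are already active. 10058-F4 is a small molecule that interferes with the pairing of Myc and Max. IgG libraries record the reads that arrive without a specific antibody, which are more frequent in open chromatin.

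The Pol2 library without 10058-F4 held 2377368 reads and the library with it held 5130471. A bin with 0 reads in the shallower library therefore allows a level of up to 3 reads. Myc libraries held 2141694 to 7433203 reads and IgG libraries 1278471 to 5119994. The 2 Pol2 libraries had the same read length of 45 bases, while reads were 24 to 30 bases in replicate 1 of B4 Myc and of B4 IgG, and 25 bases in T cells. Tiles of 10 kb with little Pol2 took a share of reads in the treated library that was 0.634 times that in the untreated one. Over all kept bins the median log2 ratio was 0.63, and 79.6% lay above 0. Scaling the libraries on those low tiles instead moved that median by 0.65 to 1.27 and the share above 0 to 94.5%. The members' median moved with it, from 3.65 to 4.30.

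At the members, few Pol2 reads were present without 10058-F4 and 20 or more per bin with it. A member held 0 to 8 reads (median 1) in the untreated library and 20 to 191 reads (median 28) in the treated library. In the untreated library 346 members had 0 reads, 496 had 1 read, 96 had 2 reads and 62 had 3 or more. Most members were modest in the treated library, with 568 of them at 20 to 29 reads and 24 at 100 or more. The mean level was 0.392 RPM per bin without 10058-F4 and 6.84 RPM with it, a ratio of 17.5. The other kept bins had 5.89 and 8.71 RPM, a ratio of 1.48. With 10058-F4 the members thus reached 0.785 times the level of the other kept bins, and without it 0.0665 times that level. With 1 Pol2 library per condition there is no replicate check of any of these values.

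**Figure D1:**
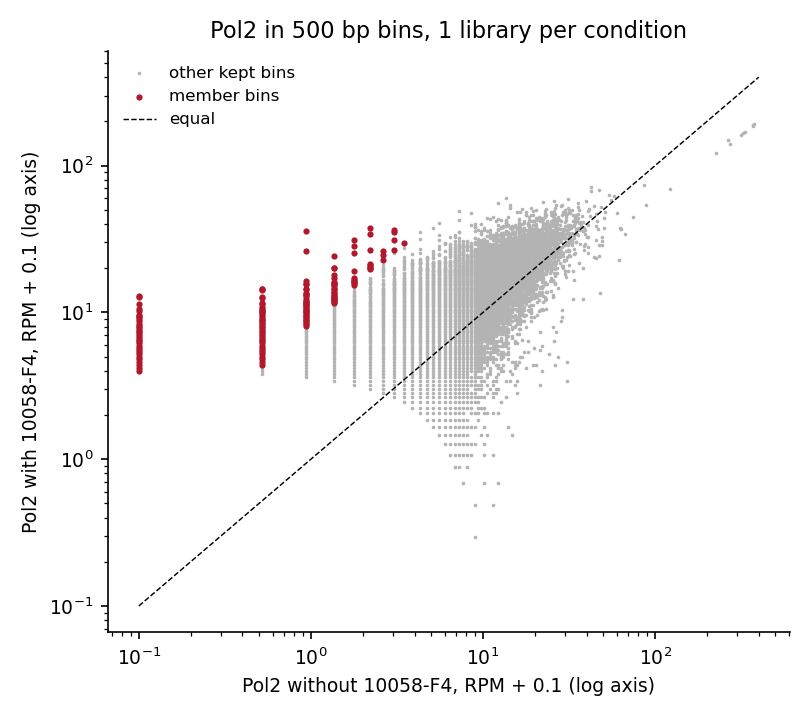
Pol2 in each kept 500 bp bin, without 10058-F4 (x axis) and with it (y axis), in RPM plus 0.1 on log axes; bins with the same pair of read counts share a point. Member bins (red) sit at the left edge, at 0 to 8 reads without 10058-F4, and most other kept bins (grey) lie above the dashed line of equality, with a median log2 ratio of 0.61.

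The 10 highest-ranked members each had 0 reads in the untreated library, so their folds were computed against a floor of 3 reads in that library. Those folds allow neither for counting error in the treated reads nor for the choice of the bins. The first, chr7:45647001-45647500, had 66 treated reads (12.9 RPM), at least 10.2-fold higher. The second, chr8:10994001-10994500, had 65 reads, and the third, chr2:178446501-178447000, had 58 reads. The others of the 10 had 47 to 54 treated reads, 7.26-fold to 8.34-fold above the floor, with lower interval ends of 5.68 to 6.55. They lay at chr2:166093001-166093500, chr3:84767501-84768000, chr2:101858001-101858500, chr6:114744001-114744500, chr8:10987001-10987500, chr1:72144001-72144500 and chr8:10985001-10985500. Of the 10, 3 were therefore on the same stretch of chromosome 8, described below. No gene is assigned to these regions, because an annotation of mm8, the genome build of the files, was not used here.

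The lower edge of the set fell inside a run of tied bins. The last 3 bins taken were chr5:112510501-112511000, chr5:112522501-112523000 and chr5:149641501-149642000. The 3 bins just outside were chr6:31044001-31044500, chr6:83419001-83419500 and chr6:146655001-146655500. All 6 bins had 1 untreated and 22 treated reads, a log2 ratio of 3.08, whose 95% counting interval in fold ran from 1.65 to 421. In all, 62 bins shared that pair of counts. The 20 on chromosomes 1 to 5 entered the set by position and the 42 on chromosomes 6 to 19 did not. The numbers of members per chromosome are therefore given without these ties. The highest rate was then on chromosome 5, with 100 members (32.5 per 1000 kept bins), and the lowest on chromosome 11, with 65 (14.5). Chromosome 8 had 75 (30.1) and chromosome 1 had 79 (29.981). For comparison, all chromosomes together, ties included, had 1000 members among 45878 kept bins. On chromosome 8, 35 of the 75 members lay in the stretch chr8:10981501-11007000, described below, so its rate rests largely on that stretch.

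Around the members the Pol2 profiles with and without 10058-F4 had different shapes. In the treated library the level was 6.84 RPM in the member bin, 3.91 RPM in the bins next to it and 1.74 RPM at 5 to 10 kb. In the untreated library it was 0.392 RPM in the member bin, 1.24 RPM next to it and 0.778 RPM at 5 to 10 kb. The untreated level was thus lower in the member bin than on either side of it, a dip that lies where the rule asked for low untreated reads. The ratio of treated to untreated level fell from 17.5 in the member bin to 3.14 next to it, 2.58 at 1 to 2 kb and 2.23 at 5 to 10 kb. Over the 1795 adjacent bins that were not members themselves the ratio was 2.56, and 543 of them (30.3%) had enough reads to be kept. At the other kept bins the ratio was 1.48 in the bin, 1.44 next to it and 1.23 at 5 to 10 kb. The larger fold in the member bin follows from choosing bins on that fold. The surroundings of some members include other members. At 5 to 10 kb the ratio was 1.62 around the 716 members with no other member within 5 kb. It was 3.30 around the other 284, and both were above the value around the other kept bins. Of the 716, only 677 had no other member within 10 kb, so the zone from 5 to 10 kb still held some members.

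**Figure D2:**
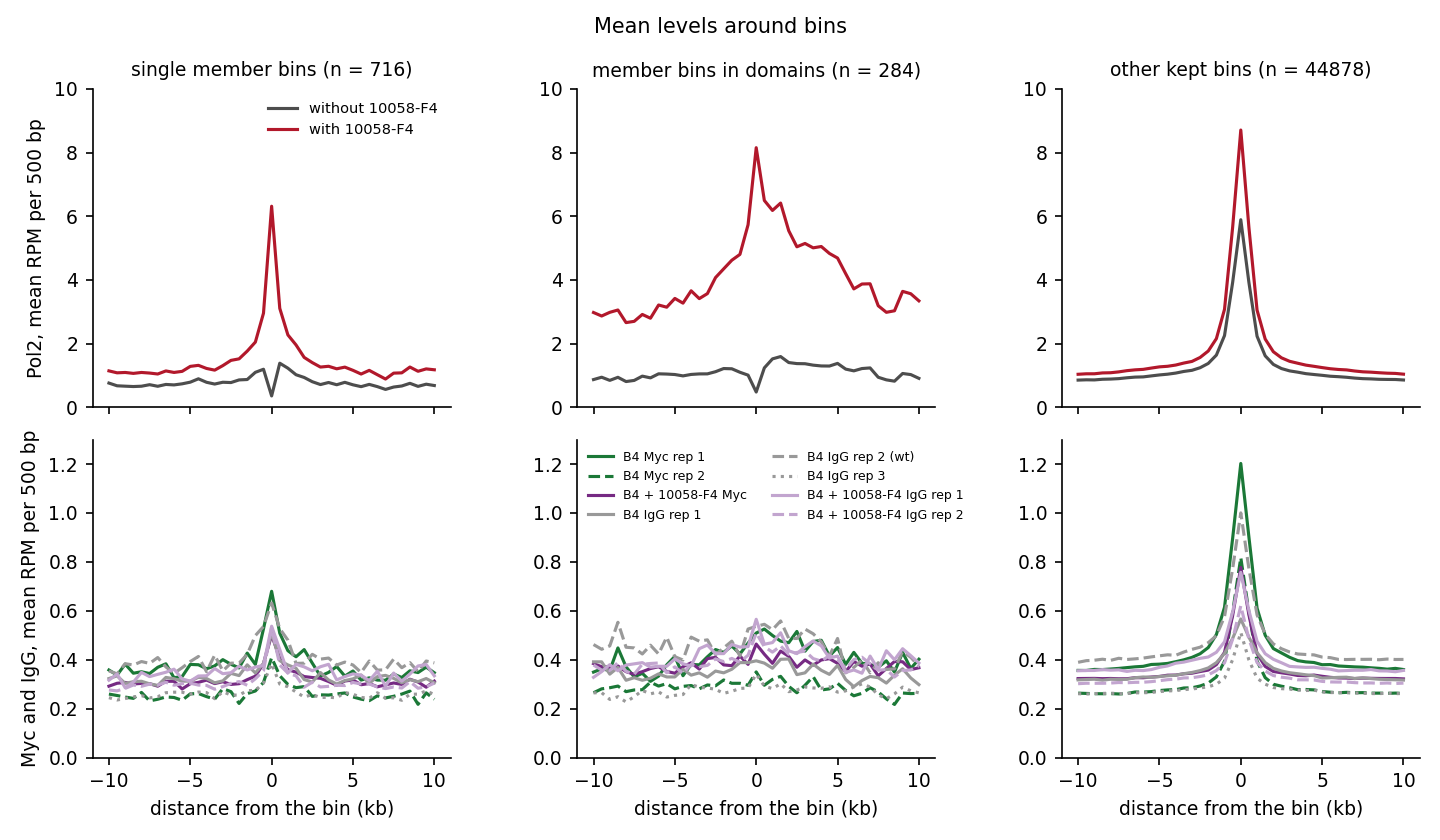
Mean RPM per 500 bp bin within 10 kb of single member bins, member bins in domains and other kept bins; the upper row shows the 2 Pol2 libraries and the lower row the Myc and IgG libraries of B4 cells with and without 10058-F4. Pol2 with 10058-F4 (red) peaks at both kinds of member, with a broad shoulder at domain members, whereas untreated Pol2 (grey) dips in the member bin.

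Members were partly clustered. When members no more than 5 kb apart were joined into domains, the 1000 bins formed 809 domains. Of these, 716 were single bins and 93 held 2 or more members, together 284 bins or 28.4% of all members. Sizes were strongly uneven, with 67 domains of 2 members, 14 of 3, 3 of 4, 5 of 5, 1 of 6, 1 of 7, 1 of 23 and 1 of 35. The 2 largest domains held 58 members (5.8%). The 1000 bins ranked next formed 906 domains, with 16.9% of bins in domains of 2 or more and no domain above 4 bins. The 1000 most lowered bins formed 690 domains, with 43.2% of bins in domains of 2 or more and a largest domain of 19. Clustering at the members thus lay between these sets in extent, and the 2 largest domains exceeded any domain of either.

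The number of domains followed the gap that was allowed. It was 913 with adjacent bins only, 861 with gaps up to 1 kb, 773 up to 10 kb and 668 up to 50 kb. At 50 kb, 46.7% of members had a neighbour in the same cluster, and 21 clusters held 5 or more members, 195 members in all. Some clusters were loose at that distance. One on chromosome 15, from 72928501 to 73003000, held 17 members over 74.5 kb, and one on chromosome 1, from 72092001 to 72144500, held 11 over 52.5 kb. The latter ends in the member ranked ninth. One on chromosome 17, from 51203001 to 51293500, held 10 members over 90.5 kb. These 3 clusters were picked after their sizes were seen.

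The largest domain, chr8:10981501-11007000, had 35 members among 51 bins over 25.5 kb. All its bins together held 50 untreated and 2210 treated reads, a ratio of 20.5 (95% counting interval 15.5 to 27.7). Untreated reads were absent from 26 of the 51 bins, and the median treated bin held 32 reads. Its right-hand end carried the strongest members, with 182 treated and 2 untreated reads at chr8:11005501-11006000. The 10 kb to the right of the domain held 1185 treated and 128 untreated reads, and the 10 kb to its left 160 and 15. Untreated Pol2 reached 13.5 RPM in a bin within that right flank, where treated Pol2 reached 59.8 RPM. The members of this domain thus lie on one side of a bin cluster that had Pol2 in both libraries and was therefore outside the set.

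The second domain, chr4:130178001-130209000, had a different form. Its 23 members were spread among 62 bins over 31 kb, and the whole domain held 239 untreated and 2485 treated reads, a ratio of 4.82 (4.22 to 5.53). Bins with up to 25 untreated reads lay between the members, so the rise was present in the members and in bins that were not members. In the 10 kb to the left there were 485 treated and 56 untreated reads, and to the right 138 and 17.

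**Figure D3:**
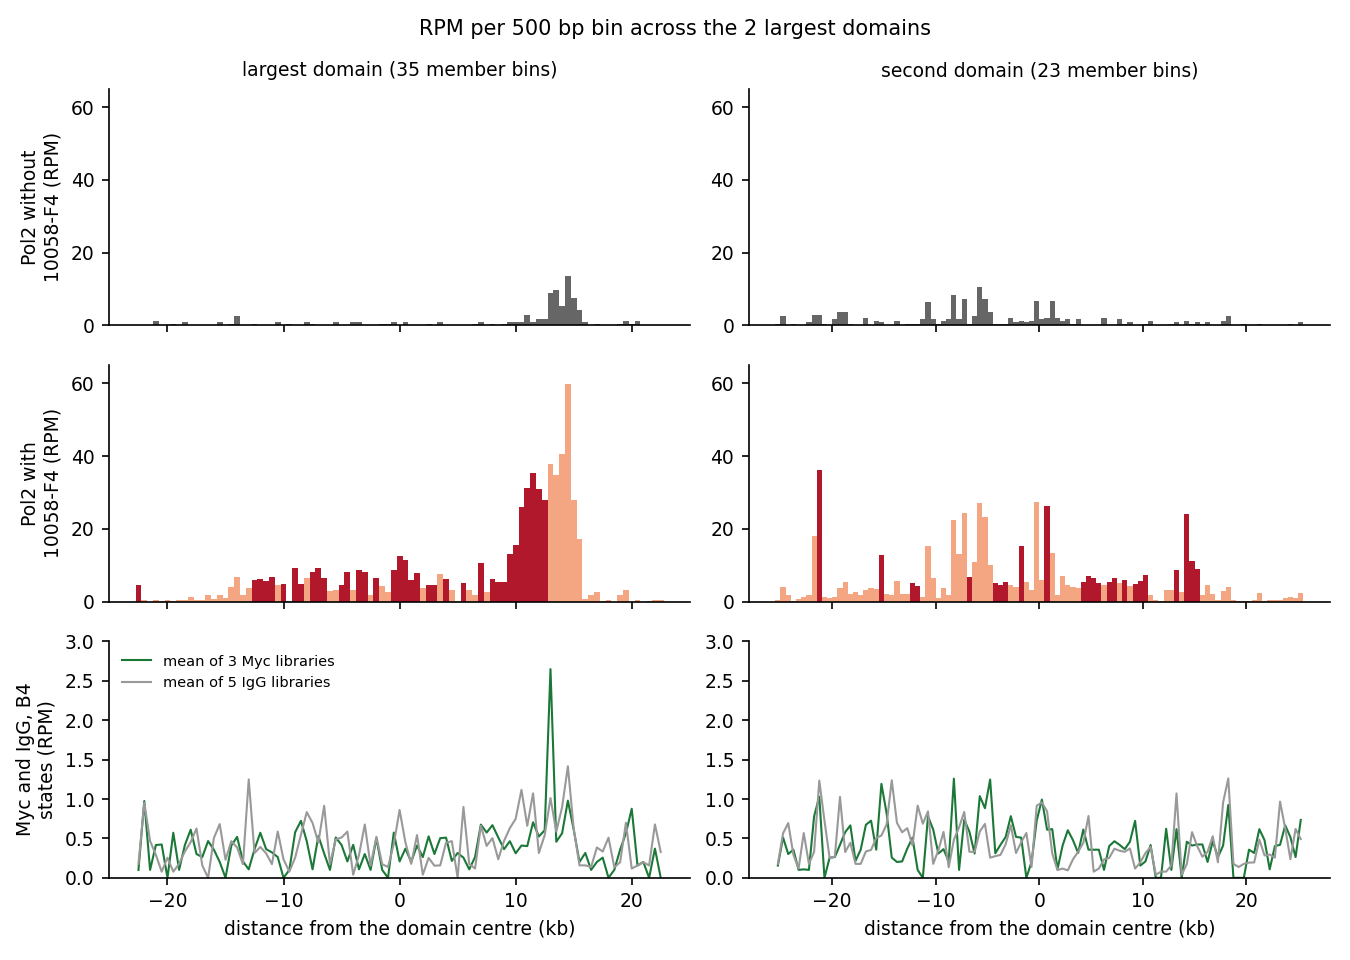
RPM per 500 bp bin across the largest domain (left) and the second domain (right) with 10 kb on each side; rows show Pol2 without 10058-F4, Pol2 with it (red bars are members, light bars are not) and the means of the 3 Myc and the 5 IgG libraries of B4 cells. In the largest domain members lead up to a peak that both Pol2 libraries have, and in the second they alternate with bins that have untreated Pol2.

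The next 4 domains were shorter. At chr5:99483501-99492000, 7 of 17 bins were members, with 49 untreated and 553 treated reads in all (ratio 5.23, 3.90 to 7.16). At chr8:108933001-108941500, 6 of 17 bins were members, with 49 and 530 reads (5.01, 3.74 to 6.86). This domain also ended beside strong Pol2, since the 10 kb to its right held 246 untreated and 1165 treated reads. At chr15:72986001-72991500, 5 of 11 bins were members, with 41 and 574 reads (6.49, 4.72 to 9.14), and the 10 kb to its left held 203 and 1125 reads. At chr7:139249501-139254500, 5 of 10 bins were members, with 0.463 RPM per bin untreated and 6.20 RPM treated (13.4, 7.39 to 27.1). Only this domain and the largest had ratios above 10 among the 6 named ones. The intervals cover counting error only, and they do not allow for the choice of the bins.

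Members mostly lay away from the strongest Pol2 of the untreated cells. There were 9684 bins with at least 20 untreated Pol2 reads, and the median distance from a member to the nearest of them was 24 kb. It was 10 kb for the other kept bins, which include those strong bins themselves, and 2.5 kb for the most lowered bins. Within 2 kb of a strong bin lay 12.3% of members, 36.2% of the other kept bins and 49.6% of the most lowered bins. Single members were farther away (median 34 kb) than members in domains (11.8 kb). The 1000 bins ranked next had the same median as the members, 24 kb. Because untreated reads enter the ranking, these distances describe the set.

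The treated Pol2 reads of the members came from both strands. The median share of plus-strand reads was 50%, and 96.1% of members had a share between 20% and 80%, beside 96.0% of the other kept bins. Few members lacked reads throughout the libraries with short reads. In all 6 of those libraries 8 members (0.8%) had 0 reads, against 0.274% of the other kept bins, and no member was at 0 in all of the libraries with long reads.

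Myc and IgG did not enter the choice of members and were read in each state at the same bins. Per member bin, B0 Myc had 0.653 RPM and B0 IgG 0.541 RPM. B4 Myc had 0.632 RPM in replicate 1 and 0.393 RPM in replicate 2, beside 0.478, 0.605 and 0.373 RPM in the 3 B4 IgG libraries. Replicate 1 of B4 Myc was above all 3 IgG values and replicate 2 was below 2 of them, so the groups overlapped. With 10058-F4, Myc had 0.491 RPM and IgG 0.546 and 0.526 RPM. T4 Myc had 0.531 RPM and T4 IgG 0.363 RPM. The library labelled T14 Myc had 0.253 RPM and the library labelled T14 IgG 0.446 RPM. The mean over all bins of the genome is 0.203 RPM in every library. It includes any bins to which no read could be aligned, whereas each member held at least 20 Pol2 reads. Each of the 14 libraries was above that mean at the members, by 1.25-fold to 3.22-fold. Libraries labelled IgG were among them, at 1.79-fold to 2.98-fold, and the library labelled T14 Myc was at 1.25-fold.

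Each of these 14 libraries was lower at the members than at the other kept bins. The rule also made the 2 sets differ in untreated Pol2, at 0.392 and 5.89 RPM. The ratio of members to other kept bins was 0.525 and 0.480 in the 2 B4 Myc libraries, 0.632 in Myc with 10058-F4 and 0.599 in T4 Myc. In the 3 B4 IgG libraries it was 0.843, 0.605 and 0.728, and in the 2 IgG libraries with 10058-F4 it was 0.720 and 0.847. B0 Myc and B0 IgG had nearly equal ratios, 0.726 and 0.723. The bins ranked next were much closer to the members, with ratios of members to them from 0.828 to 1.11. Members were above them in the library labelled T14 Myc (1.11) and in IgG replicate 2 with 10058-F4 (1.05). The libraries were also higher in the member bin than around it. The member bin stood at 1.53-fold to 1.77-fold of the level at 5 to 10 kb in the 2 B4 Myc libraries and at 1.45-fold to 1.56-fold in the 3 B4 IgG libraries. Over the 14 libraries the range was 1.25-fold to 1.77-fold. The ranges of Myc and IgG in these local ratios overlapped.

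**Figure D4:**
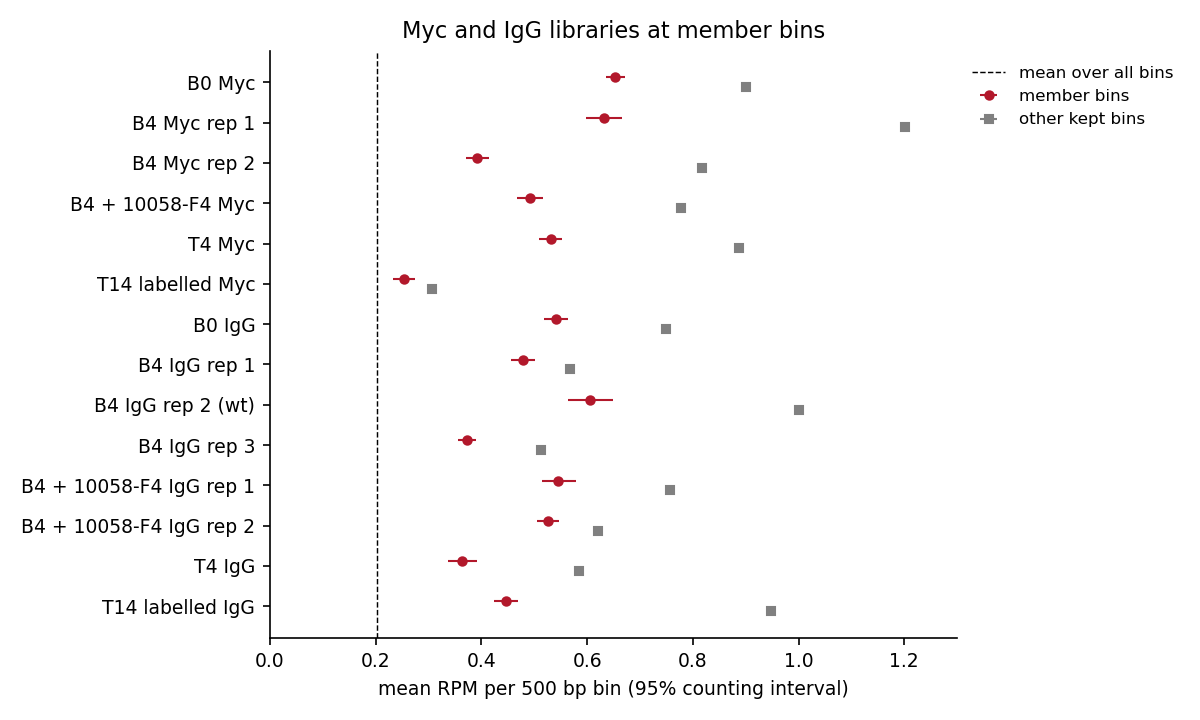
Mean RPM per 500 bp bin in each Myc and IgG library at the 1000 members (red circles) and the other kept bins (grey squares), with 95% counting intervals; the dashed line is the mean over all bins. Members lie above the line and below the other kept bins in all 14 libraries.

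Set against IgG of the same state, Myc was weak at the members. The log2 of Myc over IgG was 0.27 in B0 (95% counting interval 0.20 to 0.34). In B4 it was 0.38 (0.29 to 0.47) in replicate 1 and -0.31 (-0.40 to -0.21) in replicate 2, each over the mean of the 3 B4 IgG libraries. Replicate 2 stayed negative, at -0.12 to -0.46, when any 1 of the 3 IgG libraries was left out. In a comparison added after the data were seen, each replicate was set over the IgG library of matching title wording. These were IgG replicate 1 for Myc replicate 1 and IgG replicate 3 for Myc replicate 2. The values were then 0.40 and 0.08, against 1.08 and 0.68 at the other kept bins. With 10058-F4 the log2 of Myc over mean IgG was -0.12 (-0.21 to -0.04). It was 0.55 (0.42 to 0.67) in T4 and -0.82 (-0.96 to -0.68) for the libraries labelled T14. The same value at the other kept bins was 0.27 in B0, 0.79 and 0.24 in the 2 B4 replicates, 0.17 with 10058-F4, 0.60 in T4 and -1.63 for T14 as labelled. Members were thus below the other kept bins by 0.41 and 0.54 in the B4 replicates and by 0.30 with 10058-F4. The 2 sets were not matched for untreated Pol2, so these differences cannot be told apart from that one. Members minus other kept bins came to 0.01 in B0, -0.06 in T4 and 0.81 for T14 as labelled. The bins ranked next resembled the members in B4, at 0.46 and -0.23. The most lowered bins stood at 0.56 and 0.11 in B4 and at 0.43 with 10058-F4. A negative value for T14 as labelled means that the library labelled IgG had a higher level at these bins than the library labelled Myc. If the file names hold in place of the titles, every T14 value here changes sign, the difference of 0.81 included.

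**Figure D5:**
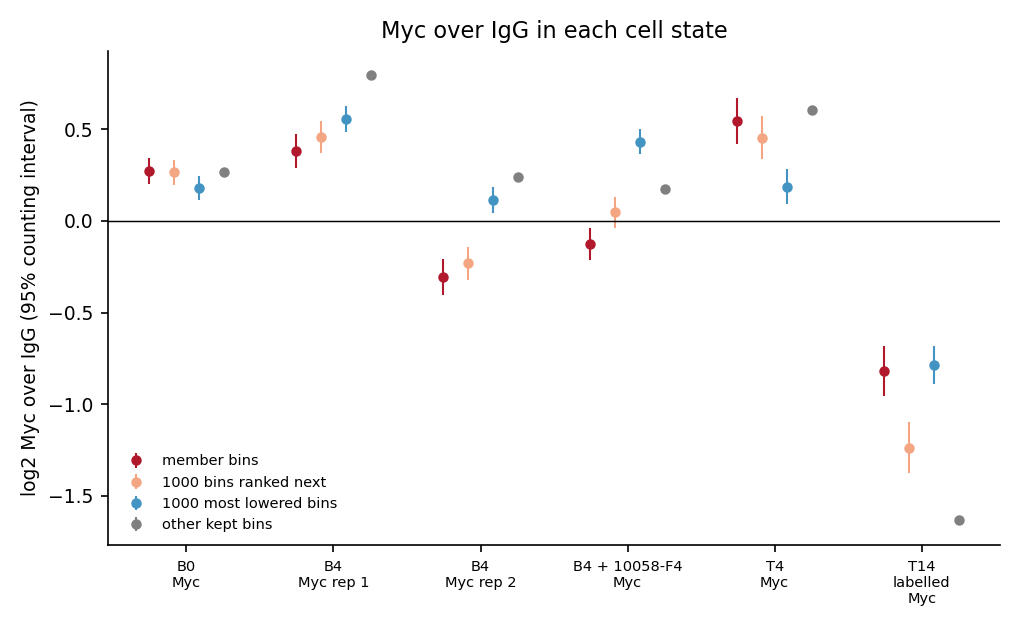
log2 of Myc over IgG of the same state in each Myc library, with 95% counting intervals, at members (red), the 1000 bins ranked next (orange), the 1000 most lowered bins (blue) and the other kept bins (grey). Members lie below the other kept bins in both B4 libraries and with 10058-F4, and above them for the libraries labelled T14.

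Myc over IgG was also read by the kind of member. Single members stood at 0.42 and -0.32 in the 2 B4 replicates and at -0.09 with 10058-F4. Members in domains stood at 0.26 and -0.28 and at -0.21. Among the 6 named domains, the largest had -0.03 and -0.29 in B4 and -0.25 with 10058-F4. The second had 0.24 and -0.12 in B4, 0.16 with 10058-F4 and 1.03 in T4. The domain on chromosome 7 rested on 1 read in B4 Myc replicate 1, so its value of -3.10 is uncertain. In none of the 6 domains were both B4 replicates above the mean of the 3 IgG libraries, but in 4 of the 6 both were above the IgG library of matching title. Immediately right of the largest domain, in the first bin beyond its end, B4 Myc replicate 1 reached 6.07 RPM where replicate 2 had 0.968 RPM and the 3 IgG libraries had 0 to 2.35 RPM. That bin is not a member, and it was singled out after its values were seen.

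Myc reads per member were few. Summed over the 2 B4 Myc libraries, the median member had 2 reads and the highest 13, and 136 members had 0. At least 8 reads were present at 26 members (2.6%), of which those with the most and the least Myc over IgG are named. The highest mean over the 2 replicates, a log2 of 2.89 with 0.1 RPM added, was at chr10:120299001-120299500. It had 9 and 4 Myc reads and 1, 0 and 2 reads in the 3 IgG libraries, and with 10058-F4 it had 0 Myc reads and 6 and 0 IgG reads. At chr4:16039501-16040000 (2.74) there were 11 and 2 Myc reads, and 1 Myc read with 10058-F4. At chr5:143082501-143083000 (2.15) there were 3 and 5 reads, and 0 with 10058-F4. The other 2 of the 5 highest were chr15:57561001-57561500 (2.15) and chr2:27240001-27240500 (1.95), with 2 and 5 Myc reads with 10058-F4. The 3 lowest were chr1:186494001-186494500 (0.43), chr10:75789001-75789500 (0.38) and chr9:96920501-96921000 (0.02). These bins were named for their B4 Myc values, so the values are a description.

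In the replicated test of Myc over IgG in B4 cells, no member window was called. Reads were counted in 1 kb windows, those averaging 4 or more reads were kept, and limma was used for the test, with p-values adjusted by Benjamini-Hochberg over all windows tested. Across the genome, 576 of 15437 windows were higher in Myc at an adjusted p below 0.05, or 3.73%, and 0 were lower. Of the 957 windows that hold a member, 86 had enough reads to be tested, and 0 were called. With limma-trend 0 of the 86 were called as well, beside 45 of 15437 windows in all (0.292%). At an unadjusted p below 0.05, 4 of the 86 were higher and 0 lower, where 19.4% of all tested windows were higher and 0.0713% lower. The median log2 difference was 0.28 over the 86 windows and 0.57 over all tested, but the order depended on the setting. Without B4 Myc replicate 2 the medians were 0.85 and 0.72, and without B4 Myc replicate 1 they were -0.14 and 0.09. With a minimum of 2 reads, which let 670 member windows be tested, they were 0.12 and -0.03, and 5.67% of member windows and 3.97% of all windows were higher at an unadjusted p below 0.05. Among the 86 windows tested at the minimum of 4 reads, the smallest adjusted p was 0.0609 with limma, at chr2:180048001-180049000. That window had 11 and 10 Myc reads and 3 reads in each of the 3 IgG libraries, a log2 difference of 2.24 (SE 0.75), and its lowest Myc value was above its highest IgG value. The remaining member windows were too sparse for the test at that minimum. Without B4 Myc replicate 2, 1 of 133 member windows was called (0.752%), beside 3.45% of all windows, and the lone Myc library was then assumed to vary like the IgG libraries. The 576 calls over all windows fell to 21 without B4 Myc replicate 1 or B4 IgG replicate 3, and to 202 and 200 without B4 IgG replicates 1 and 2. 

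With 10058-F4, Myc over IgG at the members was 0.16 lower on the log2 scale than the mean of the 2 B4 replicates. At the other kept bins it was 0.34 lower. The direction at the members depended on the B4 Myc library. The difference was 0.18 without B4 Myc replicate 1 and -0.50 without replicate 2, and it was -0.003 without B4 IgG replicate 3. In limma's test of this difference, 109 of the 957 member windows could be tested and 0 were called in either direction. Across the genome 0 of 14219 windows were called, a background of 0%. At an unadjusted p below 0.05, 0 of the 109 were higher and 1 lower, beside 0.57% and 3.4% of all windows. That window, chr15:72989001-72990000, lies in the named domain on chromosome 15, with 10 and 7 Myc reads in B4 and 4 with 10058-F4 (log2 -2.37, SE 1.18, limma adjusted p = 0.977). The lone Myc library with 10058-F4 was assumed to vary like the replicated groups, and the absence of calls does not show that Myc over IgG was unaltered.

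IgG at the members overlapped between cells with and without 10058-F4. The 2 libraries with it had 0.546 and 0.526 RPM per member and the 3 without it 0.478, 0.605 and 0.373 RPM. Both treated values lay inside the range of the untreated ones. The ratio of group means was 1.10 (log2 0.14), set beside a Pol2 ratio of 17.5 at the same bins. At the other kept bins the IgG ratio was 0.994 (log2 -0.01). The value at the members was 0.33 without B4 IgG replicate 2 and -0.02 without B4 IgG replicate 3. Members in domains had 0.566 and 0.510 RPM with 10058-F4 and 0.396, 0.537 and 0.342 RPM without it, a ratio of 1.27, and the groups overlapped there as well. Single members had a ratio of 1.05. In the largest domain IgG was 0.613 and 0.485 RPM with 10058-F4 and 0.332, 0.491 and 0.241 RPM without it, a log2 of 0.63. All 6 named domains had higher mean IgG with 10058-F4, with log2 values of 0.18 to 0.84, but the libraries overlapped in all except the domain on chromosome 5. B4 IgG replicate 2 was above both treated libraries at chr4:130178001-130209000 (0.631 against at most 0.501 RPM). The same held at chr8:108933001-108941500 (0.598 against 0.558 RPM) and chr15:72986001-72991500 (0.782 against 0.646 RPM). The part of IgG in the Pol2 values was not tested further.

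Across tiles of 10 kb, 0 of the 831 tiles that hold a member were called for IgG with limma, all 831 being tested. The background was 0% in each direction, or 0 of 225578 tiles. At an unadjusted p below 0.05, 23 of the 831 were higher with 10058-F4 and 18 lower, where 4.06% and 2.94% of all tiles were. The members' shares were 2.77% and 2.17%. They depended on single libraries. Without B4 IgG replicate 2, 81 of the 831 were higher (9.75%, beside 6.15% of all tiles), and without B4 IgG replicate 3, 42 were lower (5.05%, beside 2.79%). The median log2 difference was 0.02 over the 831 tiles and -0.03 over all tiles, and limma-trend called 0. Without B4 IgG replicate 1, 1 of the 831 member tiles was called, lower with 10058-F4, beside 61 of 225861 tiles in all (0.0270%). In the main test with all libraries, the tile with the smallest p among the 831, chr4:130200001-130210000, covers part of the second domain. It had 17 and 43 IgG reads with 10058-F4 and 9, 10 and 13 without it, a log2 difference of 1.44 (SE 0.44), and its limma adjusted p over all tiles was 0.649. Both treated read counts exceeded the 3 untreated ones before scaling to depth. The depths of these 5 IgG libraries ran from 1278471 to 5119994 reads, so the counts alone do not separate the groups.

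IgG reads at single members were uneven. At least 10 reads summed over the 5 IgG libraries were present at 332 members. Of these, 66 had a log2 ratio of treated to untreated IgG above 1 and 57 had one below -1, so large ratios occurred in both directions. The highest, 3.72, was at chr6:51074501-51075000, with 5 and 9 IgG reads with 10058-F4 and 0, 0 and 1 without it, beside 34 Pol2 reads with 10058-F4 and 0 without. The next were chr17:49534001-49534500 (3.22), chr8:10995501-10996000 (3.04), chr4:130208001-130208500 (2.82) and chr11:79469001-79469500 (2.65). The third and the fourth of these lie in the largest and the second domain.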

How the data were processed

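Each deposited file lists the aligned reads of a library by position, length and strand. The files hold no counts or other values made by the authors. Per the submitters' processing notes, CASAVA 1.0, Bowtie 0.12.7 and genome build mm8 were used. Whether positions count from 0 or 1 is not stated, so coordinates may be off by 1 base. Of reads sharing a 5′ end and strand, only 1 was retained, which removed 5.29% of reads in B4 Myc replicate 1, at most 0.0808% in another library and 0% in the Pol2 libraries. Reads were counted by midpoint with Python 3.11.15. Replicate libraries were compared before averaging: chi-square per degree of freedom was 12.9 to 69.6, so each counted as its own library. Tests used limma 3.58.1 with voom weights and were tested on simulated data, where the test of the change in Myc with 10058-F4 missed most of the changes put in. Intervals are at 95% and cover counting error only. The members, the lists, the tests and the alternatives were chosen with earlier results of these data known. Named regions were the 10 highest members, the 6 bins around the lower edge, the 6 domains with most members, and the members with extreme Myc or IgG values among those with at least 8 Myc or 10 IgG reads. No test was run on Pol2 (1 library per condition) or on T14.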

Additional observations from a re-analysis of the deposited data

How the results depend on the processing

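Of 178 values recomputed for 13 results, all but 11 stayed within the spread between replicates or within 1.5 times the main count. That spread was wide, with a standard deviation in log2 of 0.49 between the B4 Myc replicates and 0.35 between the B4 IgG libraries. A value could therefore change sign and still be counted as unmoved, as the change in Myc over IgG with 10058-F4 did. The choice of members was the least stable. Of the 1000 members, 347 were chosen again with a minimum of 10 Pol2 reads and 249 with 40 reads. The 568 members at 20 to 29 treated reads had at most 8 untreated reads, so none of them could reach a minimum of 40. The minimum of 10 kept 89672 bins in place of 45878 to be ranked for the same 1000 places. In bins of 1000 bp 499 were chosen again, and 474 with the grid moved by 250 bp, where the cause was not tested. Other rankings kept 692 to 1000 members. The number of domains was 668 to 913 under all its alternatives. Myc over IgG was -1.31 for the libraries labelled T14 with 40 reads, and 1.70 in T4 as a median over members. The change in Myc over IgG with 10058-F4 was 0.06 as a median over members. In alternatives chosen after seeing the data, it was -0.36 with IgG matched by title, and without the 2 largest domains it was -0.17 and the IgG log2 ratio 0.11. Member tiles called for IgG numbered 1 with at least 8 reads per library (0.121%, beside 0.365% of all tiles) and 0 to 1 when each replicate was left out in turn, with 1, lower with 10058-F4, without B4 IgG replicate 1. Member windows called for Myc in B4 numbered 1 at 2 kb (0.171%, beside 0.209% of all windows) and 0 to 1 with each replicate left out, with 1 without B4 Myc replicate 2. The titles form 2 pairs of B4 Myc and IgG libraries by wording (unmarked, and marked as a repeat), and each pair also shares its read length, but what else a pair shares is not stated. With these as a replicate block, and without B4 IgG replicate 2, 2 of 171 member windows (1.17%, beside 3.87% of all windows) were called for Myc in B4 and 0 for the change with 10058-F4. That change gave 0 calls under every alternative, but a minimum of 8 reads left no member window to test. Over all windows, calls ranged from 3 to 1262 for Myc in B4 and from 0 to 745 for IgG. Depth limits the Myc windows: 86 of 957 could be tested at a minimum of 4 reads, 670 at 2 reads and 957 with no minimum but 1 read. Each time 0 were called, beside 3.73%, 0.00753% and 0.000138% of all windows. At the lower minimums so few windows were called anywhere that 0 calls say little about the members.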
